A study of Mus musculus with 9 samples.

Results

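T zone macrophages (TZM) of the mouse lymph node were compared with CD8a+ dendritic cells (DC) across 19938 genes on Affymetrix mouse gene arrays, 3 arrays of each population, which are 6 of the 9 arrays in the series. The arrays were chosen by their titles, and the 3 microglia arrays were not used. All cells came from mice labelled CX3CR1 gfp+/-, in which a green fluorescent protein (GFP) reporter stands in for 1 copy of the fractalkine receptor gene, so the DC carried the reporter allele too. Minced tissue was incubated with collagenase I and DNase I, CD11b+ cells were enriched for TZM and CD11c+ cells for DC, and the populations were then sorted by flow cytometry, TZM as GFP-high, MertK+, CD169-, CD11b+ cells and DC as CD64-, CD11c-high, MHC class II-high, CD8a+ cells. Age and sex are not labelled, pooling of animals is not described, and the DC are given as lymph node cells in the sample fields but as splenic cells in the sorting description, so a difference between lymph node and spleen cannot be told apart from the difference between the cell types. Replicates are labelled biological, but nothing ties them to separate animals, so the p-values measure the spread between these arrays.

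Macrophages of the T cell zone live among the lymphocytes of the lymph node paracortex and take up cells that die there. A macrophage that clears corpses binds them through surface receptors, breaks them down in lysosomes, and passes on the lipid, iron, nucleotides and amino acids that they release. CD8a+ DC, also called type 1 conventional DC, are the cells best known for cross-presentation: they take up dead cells and show peptides from them on class I molecules to CD8+ T cells, after travelling to the T cell zone themselves.

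Levels are log2 values from robust multi-array averaging (RMA), on which a difference of 1 is a doubling, and they ran from 2.04 to 13.61. In what follows the values of 3 arrays are given in the order of replicates 1, 2 and 3, and a difference is TZM minus DC with its standard error (SE). A gene was called at a limma p, adjusted by Benjamini and Hochberg over all genes, under 0.05 together with a difference of at least 1. Levels of different genes rest on different probes and are not compared with each other. No detection calls were used, so a level near 4 may be background and a difference against such a level may understate the true fold.

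The genes of the sort gates mostly followed the labels. Mertk was at 10.02 in all 3 TZM arrays and at 3.59, 3.58 and 3.62 in DC, and Cd8a was at 5.90, 6.18 and 5.75 in TZM and at 11.34, 11.32 and 11.35 in DC. Of the 12 gate genes, 5 were called higher in TZM and 5 lower. Siglec1, which encodes CD169, stood at 8.15, 6.79 and 7.21 in the TZM, which were gated as CD169 negative, and at 4.76, 4.78 and 5.14 in DC. These genes were used in sorting and are no finding.

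Other transcripts separated the arrays along lines that the labels do not describe. Xist, the RNA that silences an X chromosome in female cells, was at 4.16, 4.36 and 8.26 in TZM and at 10.17, 9.95 and 9.98 in DC, and the Y-linked gene Eif2s3y was at 6.67, 7.37 and 5.48 in TZM and at 3.07, 2.90 and 2.99 in DC. The DC arrays were thus alike, TZM replicates 1 and 2 had the opposite pattern, and TZM replicate 3 lay between. Of 739 X-linked genes measured, 28 were called higher in TZM and 23 lower, 6.9% in all, and 3 of 9 Y-linked genes were called. Salivary gland transcripts were present in TZM: Bpifa2 was at a mean of 10.51 ± 1.37 (SD, n = 3) against 4.03 ± 0.38 in DC, with replicate 2 the highest, and Smr3a at 9.19, 10.42 and 8.41 against 3.28, 3.33 and 3.22. Of the 13 salivary genes measured, 3 were called higher, and the mean level of the list was 5.33, 5.95 and 4.90 in TZM and 3.78 to 3.89 in DC, with replicate 2 the highest. Replicate 2 was also highest for neutrophil genes, with a mean level over 13 genes of 5.03, 5.67 and 5.36 in TZM and 3.99 to 4.06 in DC, and S100a8 was at 5.89, 9.28 and 7.32 against 4.32, 4.12 and 4.25. The S100a8 call (3.27, adjusted p = 0.041) was lost without TZM replicate 3 (3.36) or any DC array (3.21 to 3.31), and that of Xist (-4.44, adjusted p = 0.042) without any array but TZM replicate 3 (-3.72 to -4.48). As the sex-linked transcripts differed along with the populations, an effect of sex cannot be told apart from the difference between the cell types. Fits that left out each array or the X and Y chromosomes do not separate them. The part of the salivary and neutrophil transcripts in the differences that follow was not tested.

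Markers of other cells were also present. Among T cell genes 3 of 16 were called higher (Cd28, Cd4 and Icos), and at an unadjusted p under 0.05 there were 10 higher and 1 lower. The mean level of the T cell list was 5.44 to 5.56 in TZM and 4.67 to 4.72 in DC. The receptor chains Cd3e (difference 0.53) and Cd3g (0.87) were not called, but Cd3g was called without TZM replicate 1 (1.12, adjusted p = 0.028). The part of T cells in the results was not tested. B cell genes gave 3 of 14 higher and 2 lower, natural killer cell genes 2 of 10 higher, plasma cell genes 1 of 8, stromal genes 3 of 13, endothelial genes 2 of 11 and erythroid genes 1 of 4. Of 6 monocyte genes 1 was lower. Among plasmacytoid DC genes 2 of 11 were higher and 4 lower, and of 11 genes of CD11b+ conventional DC 5 were higher, namely Sirpa, Cx3cr1, Cd4, Itgam and Clec10a. Of these, Cx3cr1 (the reporter locus) and Itgam (which encodes CD11b) belong to the TZM sort gate. Their direction was set by the sorting and says nothing of other cells.

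**Figure D1:**
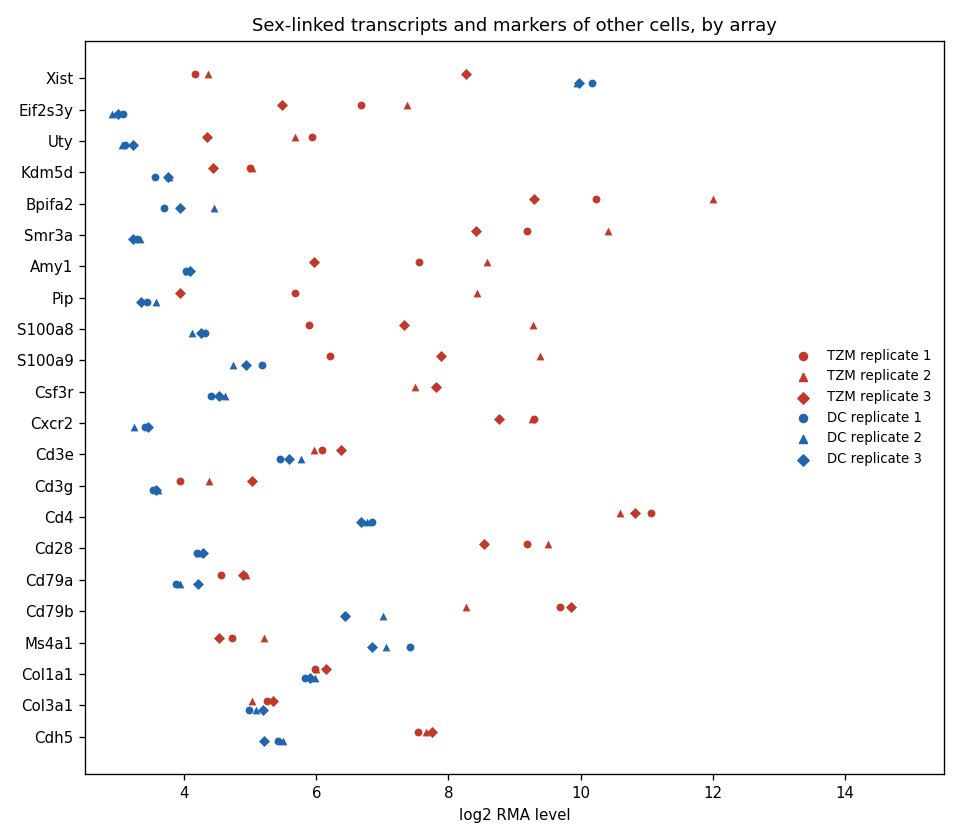
Log2 RMA levels (x axis) of 22 sex-linked and other-cell marker genes (rows), with TZM arrays in red, DC arrays in blue and the marker shape giving the replicate. The 3 DC arrays lie close together, Xist of TZM replicate 3 sits at 8.26, and the salivary genes Bpifa2 and Smr3a and the neutrophil genes S100a8 and S100a9 are highest in TZM replicate 2.

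In all, 1709 of 19938 genes (8.57%) were called. TZM were higher in 923 (4.63%) and lower in 786 (3.94%), and in 0 of the called genes did the arrays of the groups overlap. The gains were the larger changes. A difference of at least 3 was seen in 200 higher and 80 lower genes, at least 4 in 94 and 27, and at least 5 in 32 and 5. The median over all genes was 0.02, that of the genes called higher 1.76 and that of the genes called lower -1.57. Without a minimum difference the balance turned, with 1747 higher and 1863 lower. At an unadjusted p under 0.05, 2780 genes (13.9%) were higher and 2914 (14.6%) lower, against which the unadjusted counts of the lists can be read.

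**Figure D2:**
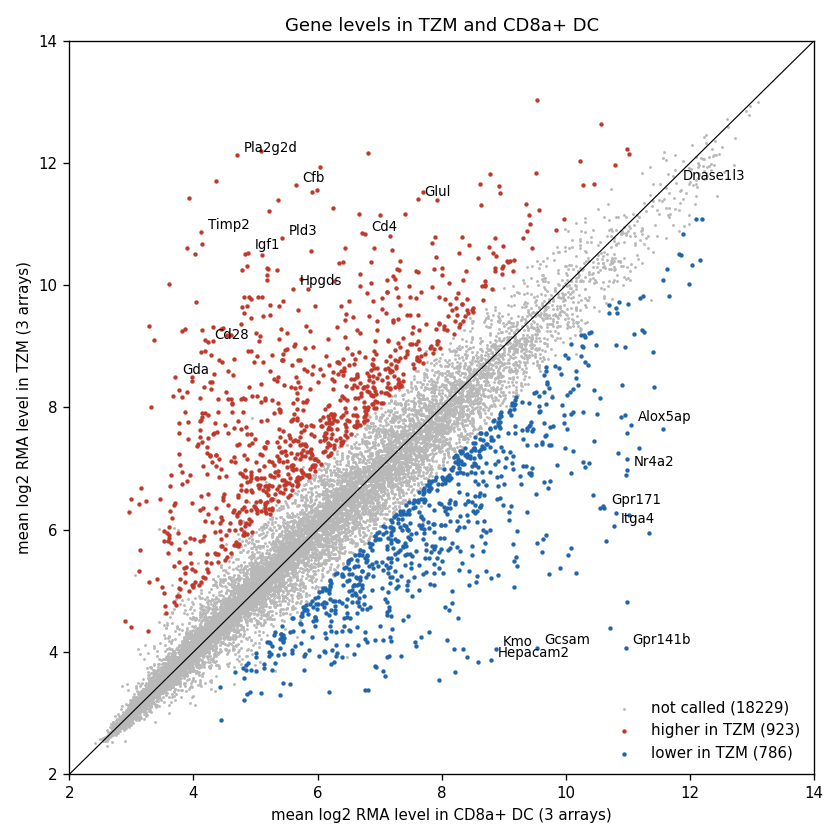
Mean log2 RMA level of each of 19938 genes in CD8a+ DC (x axis) against TZM (y axis), 3 arrays each, with called genes in red (923 higher in TZM) or blue (786 lower) and the line of equal level in black. Pla2g2d, Timp2 and Cfb stand highest above the line among the labelled genes and Gpr141b farthest below it, while Dnase1l3 lies on it at 11.67 in TZM and 11.78 in DC.

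The clearest gains and losses were genes at 9 or more in every array of one population and under 6 in every array of the other. There were 40 such genes high in TZM (0.201% of all genes) and 14 high in DC (0.0702%). The 40 include the gate genes Mertk and Cx3cr1, which are no finding, and the salivary gene Bpifa2. Timp2, an inhibitor of matrix metalloproteases, was at 10.88, 10.90 and 10.82 in TZM and at 3.93, 4.05 and 4.39 in DC, a difference of 6.74 (SE 0.13, limma adjusted p = 3.2e-06). The 3 TZM arrays were nearly equal and lay far above every DC array. Further genes of this kind were Rgl1, an exchange factor for Ral GTPases (5.47), the transglutaminase Tgm1 (5.43), the membrane skeleton protein Epb41l3 (5.01) and Prg3 (4.92). On the DC side, Gpr141b, an orphan receptor, was at 3.97, 3.97 and 4.29 in TZM and at 11.09, 10.86 and 10.93 in DC, a difference of -6.88 (SE 0.12, adjusted p = 3.2e-06). Its TZM and DC arrays lay far apart, with little spread in either population. The endothelin-converting enzyme Ece1 (-4.87), the Ras exchange factor Rasgrp3 (-4.45), the disulfide isomerase Pdia5 (-4.09), the aspartic protease Napsa (-3.80), the ubiquitin ligase Nedd4 (-3.78) and the organic anion transporter Slco3a1 (-3.68) had the same pattern. Among the 25 largest gains were also the chemokines Ccl12 (7.51) and Ccl8 (6.70), the complement C1q chains C1qa (7.33), C1qc (7.13) and C1qb (6.04), the selenium carrier Selenop (5.89), Ms4a7 (5.68), the nucleotide receptor P2ry13 (5.61) and the lectin Clec4n (5.44). The 25 largest losses included the chemokine receptor Xcr1 (-6.31), the inhibitory receptor Btla (-4.76), the peptidase Dpp4 (-4.53), Gpr171 (-4.26), Plac8 (-4.21) and the interleukin 12 subunit Il12b (-4.20).

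**Figure D3:**
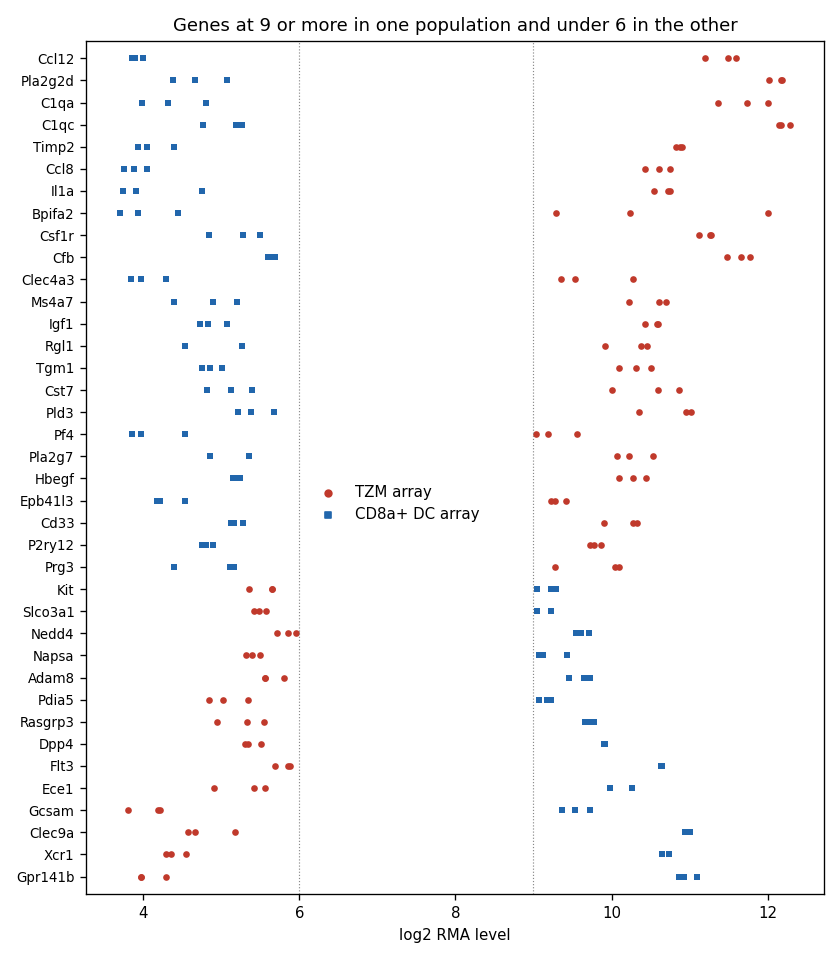
Log2 RMA level (x axis) in each TZM array (red circles) and each DC array (blue squares) of genes (rows) at 9 or more in every array of one population and under 6 in the other, dotted lines marking both limits. From the top come 24 genes high in TZM (those among the 25 largest changes, without the gate gene Mertk), then the 14 high in DC.

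Among genes for the recognition of dying cells more were higher in TZM than lower. Of 39 receptors and bridging proteins measured, 17 were called higher and 4 lower, with a median difference of 0.43 against 0.02 over all genes. Itgb5, the integrin chain that with alpha v binds corpses coated by bridging proteins, was at 8.93, 8.75 and 9.08 in TZM and at 4.73, 4.68 and 5.22 in DC (4.05, SE 0.17, adjusted p = 4.1e-05). Its partner chain Itgav was at 8.30, 7.98 and 8.22 against 8.02, 8.09 and 8.13, and these ranges overlap. The scavenger receptors Colec12 (3.68), Msr1 (3.32), Stab1 (1.56) and Marco (1.03), the bridging protein Pros1 (2.96) and the CD300 receptors Cd300ld (2.76), Cd300lf (2.12) and Cd300a (1.45) were also higher. The call of Marco was lost under median centring and quantile normalization (0.98 in both), without TZM replicate 2 (0.96) and without DC replicate 3 (0.95). Cd300lf was not called without TZM replicate 3 (1.95), DC replicate 1 (2.04) or DC replicate 3 (2.15), and Cd300a not without TZM replicate 1 or 3 (1.32 in both), DC replicate 1 (1.47) or DC replicate 3 (1.26). DC were higher in Treml4, a receptor for dying cells (-2.99), and Havcr2, which encodes TIM-3 (-1.77). Tyro3, the third kinase of the Mertk family, had a difference of 0.00.

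Downstream of the receptors the balance was closer. Of 42 engulfment and cytoskeletal genes 6 were higher and 4 lower, with a median of -0.01. The long-tailed myosin Myo1e was at 9.41, 8.48 and 8.90 in TZM and at 4.20, 4.34 and 4.02 in DC (4.74, SE 0.24, adjusted p = 7.8e-05). The actin capping protein Capg (4.37) and Dock1, which activates Rac during engulfment (3.13), were likewise higher. Vav3 (-3.18), the leukocyte actin-binding proteins Lsp1 (-2.51) and Coro1a (-2.37) and Dock5 (-1.64) were lower. Exchange factors of the same families thus lay on both sides, Dock1 and Vav2 (1.06, not called without TZM replicate 3 or DC replicate 2) on the TZM side and Dock5 and Vav3 on the DC side. The Dock1 partner Elmo1 (-0.53) and the adaptor Gulp1 (-0.01) were not called. In the machinery that decorates phagosomes with LC3, 2 of 28 genes were higher and 1 lower. Those were Cybb, the catalytic subunit of the phagocyte oxidase (11.27, 11.02 and 11.23 against 7.50, 7.23 and 7.49), Mitf (2.70) and, lower, Ncf4 (-1.14), while the oxidase subunit Ncf1 (0.00) and the LC3 pathway gene Rubcn (0.02) were level. Without TZM replicate 2, 4 genes of this list were higher.

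Lysosomal genes were higher in large part. Of 20 lysosomal proteases and their inhibitors limma called 14 higher and 0 lower, with a median of 1.53, and 1 was lower at an unadjusted p under 0.05. Of 37 membrane and proton pump genes 22 were higher and 2 lower (median 1.20), and of 37 hydrolases of lipids and sugars 16 were higher and 5 lower (median 0.87). Tpp1, a peptidase that trims proteins from their amino end, was at 10.68, 10.44 and 10.67 in TZM and at 6.90, 6.72 and 7.11 in DC (3.68, SE 0.12, adjusted p = 2.1e-05). The activating peptidase Ctsc (3.05), the asparagine endopeptidase Lgmn (2.93) and the protective protein Ctsa (2.69) moved alike. Cst7, which encodes the cathepsin inhibitor cystatin F, was at a mean of 10.49 ± 0.44 (SD, n = 3) in TZM and 5.11 ± 0.29 in DC (5.38), so the list gained an inhibitor together with the proteases. In the membrane, the cation channel Mcoln2 was at 9.46, 9.0 and 8.83 against 4.26, 3.95 and 4.37 (4.90, SE 0.19, adjusted p = 3.4e-05). The histidine and peptide transporter Slc15a3 (3.29), Gpnmb (3.27) and the proton-coupled amino acid transporter Slc36a1 (3.13) followed. Of all 24 genes named Atp6, which encode the proton pump and its accessory proteins, 6 were higher and 1 lower, and 11 were higher and 2 lower at an unadjusted p under 0.05. Those called higher were Atp6v0d2 (1.93), Atp6v0a1 (1.42), Atp6v0b (1.38), Atp6v1b2 (1.33), Atp6ap1 (1.13) and Atp6ap2 (1.08), and Atp6v0a2 (-1.12) was lower. The Atp6v0b call was lost without TZM replicate 1 or 3 or any DC array (1.21 to 1.41). That of Atp6v0a2 was lost with the mean of the gene's probe sets (-0.59) and without TZM replicate 2 (-0.92).

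The lysosomal enzymes that were lower in TZM formed a small group of their own. Arsb, a sulfatase that acts on glycosaminoglycans, was at 6.46, 6.97 and 7.33 in TZM and at 10.12, 10.10 and 10.03 in DC (-3.17, SE 0.21, adjusted p = 0.00025). The thioesterase Ppt1 (-1.96), the ganglioside activator Gm2a (-1.35), Gusb (-1.15) and Fuca1 (-1.14) were lower too. Without TZM replicate 2 the lower genes of this list were 3 of 37, as Gusb (-0.83) and Fuca1 (-0.94) lost their calls. The Gusb call was also lost without TZM replicate 1 (-1.25), without any DC array (-1.12 to -1.17) and with every probe set (-1.15).

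Many lysosomal genes carry the sequence CACGTG near their start, a form of the E-box that transcription factors of the Mitf and Tfeb family bind. In RefSeq promoters of GRCm38.p6, taken from 250 bases before to 50 bases after each start, CACGTG stood in 8.24% of 19177 promoters of all genes tested. It stood in 20 of 90 promoters (22.2%) of the 3 lysosomal lists and in 14 of 52 (26.9%) of their genes called higher. Such shares were not particular to lysosomal genes. Other lists ran from 0%, as for 34 promoters of interferon-stimulated genes, to 25%, as for 36 promoters of immediate early and stress genes. Cholesterol synthesis genes had 24% of 25 promoters. Over all genes called higher the share was 9.61%, and over those called lower 6.46%, while it was 10.7% over all genes with a mean level of at least 6 in either population. The stretches that follow show the motif, in capitals, in 4 of the genes higher in TZM, read 5′ to 3′ on the strand of the gene. They lie at chr7:142387890-142387955 (Ctsd, minus strand), chr3:146150072-146150137 (Mcoln2, plus), chr11:55204279-55204339 (Slc36a1, plus) and chr12:102439106-102439171 (Lgmn, minus), before the start of transcription. A match describes letters and is not evidence of binding.
Ctsd: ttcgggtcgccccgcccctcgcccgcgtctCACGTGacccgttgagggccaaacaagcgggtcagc
Mcoln2: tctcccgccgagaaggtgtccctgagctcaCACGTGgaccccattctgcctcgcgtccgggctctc
Slc36a1: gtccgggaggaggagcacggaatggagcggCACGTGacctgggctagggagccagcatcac
Lgmn: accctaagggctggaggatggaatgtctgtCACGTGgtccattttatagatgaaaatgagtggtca

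Genes that act on nucleic acids and purines gave 6 of 31 higher and 1 lower, with a median of 0.04. At an unadjusted p under 0.05, 8 were higher and 7 lower. Pld3, a lysosomal exonuclease of single-stranded nucleic acid, was at 11.02, 10.35 and 10.95 in TZM and at 5.68, 5.38 and 5.22 in DC (5.35, SE 0.21, adjusted p = 3.5e-05). Its relative Pld4 was at 10.45, 9.37 and 10.37 against 10.20, 10.16 and 10.13, with overlapping arrays. Some enzymes that take purines toward uric acid were called higher. Gda, guanine deaminase, was at 8.38, 8.44 and 8.67 against 3.72, 3.64 and 3.78 (4.79), adenosine deaminase Ada differed by 2.64 and xanthine dehydrogenase Xdh by 1.75. The purine genes Nt5c2 (-0.61) and Ampd3 (-0.77) were below 0 but not called. The acid nuclease Dnase2a was higher by 1.55, and the secreted nuclease Dnase1l3 was high in both populations (-0.12). Rnase6, a secreted ribonuclease, was lower at 5.32, 5.78 and 7.76 against 10.83, 10.82 and 10.78 (-4.52). The highest of its TZM values was in replicate 3, which also had the highest Xist.

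Lipid handling gave 21 of 39 genes higher and 2 lower, with a median of 1.10. Apoc1, an apolipoprotein, was at 8.26, 8.60 and 8.45 in TZM and at 4.33, 3.68 and 3.95 in DC (4.45, SE 0.18, adjusted p = 3.9e-05). Lipoprotein lipase Lpl (3.25), the fatty acid binding protein Fabp5 (3.07), the cholesterol ester hydrolase Nceh1 (2.98), the phospholipid transfer protein Pltp (2.98) and the transporter Abca9 (2.88) were higher. Cyp27a1, which oxidises the cholesterol side chain, was at 6.81, 7.23 and 6.62 against 9.02, 8.93 and 8.93 (-2.08). Synthesis of cholesterol ran the other way, with 0 of 22 genes called higher by limma and 4 lower (median -0.38), and 3 higher against 11 lower at an unadjusted p under 0.05. The 4 were squalene epoxidase Sqle (-1.68), Idi1 (-1.49), the regulator Srebf2 (-1.47) and Fdps (-1.03). The Fdps call was lost in 6 of the alternative fits, array weights (-0.91) among them, and Hmgcs1 was not called (-0.31).

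Iron and heme genes gave 12 of 29 higher and 0 lower by limma, with a median of 0.68, and 23 higher and 1 lower at an unadjusted p under 0.05. Cp, the ferroxidase ceruloplasmin, was at 8.99, 8.92 and 8.81 in TZM and at 4.04, 4.24 and 4.06 in DC (4.79, SE 0.08, adjusted p = 3.2e-06). Heme oxygenase Hmox1 was at 11.47, 11.51 and 11.56 against 9.06, 8.72 and 9.05 (2.57), and the biliverdin reductases Blvrb (2.85) and Blvra (1.39), transferrin Trf (2.31) and the ferritin receptor Ncoa4 (2.26) were higher. Both steps from heme to bilirubin were therefore on the TZM side. Spic, the transcription factor of heme-recycling macrophages, was at 10.29, 9.91 and 10.09 against 7.03, 7.44 and 6.85 (2.98). The haemoglobin scavenger Cd163 (0.19) and the transferrin receptor Tfrc (-0.54) were not called.

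Amino acid metabolism gave 5 of 35 genes higher and 3 lower (median 0.02). Glul, which joins ammonia to glutamate to make glutamine, was at 11.45, 11.34 and 11.44 in TZM and at 7.65, 7.38 and 7.82 in DC (3.80, SE 0.12, adjusted p = 1.6e-05). The glutamate transporter Slc1a3 (3.53), the amino acid exchangers Slc7a7 (3.49) and Slc7a8 (2.41) and the cystine importer Slc7a11 (2.35) were higher. Lower genes were the glutamine importer Slc1a5 (-2.37) and 2 enzymes of tryptophan breakdown, Kmo and Haao. Kmo was at 3.96, 4.10 and 4.10 in TZM and at 9.0, 8.58 and 9.03 in DC (-4.82), and Haao at 4.58, 4.40 and 4.73 against 6.75, 6.13 and 6.54 (-1.91).

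Central energy metabolism differed by list. Over all genes 4.63% were called higher and 3.94% lower. The shares were 0% and 4.44% for the TCA cycle and respiratory chain, and 9.38% and 12.5% for glycolysis and the pentose phosphate pathway. Of 45 genes of the TCA cycle and the respiratory chain limma called 0 higher and 2 lower, Cycs (-1.15) and Cox6a2 (-1.11), against 8 higher and 13 lower at an unadjusted p under 0.05. Of all 43 genes named Nduf, which encode complex I and its assembly factors, 0 were called by limma, with 5 higher and 5 lower at an unadjusted p under 0.05. The Cycs call was lost with the mean of its probe sets (-0.60). In glycolysis and the pentose phosphate pathway 3 of 32 were higher and 4 lower, with the lactate dehydrogenase subunit Ldhb at 8.10, 7.81 and 8.32 in TZM against 4.85, 4.72 and 4.28 (3.46). The phosphofructokinase Pfkp was at 5.64, 5.64 and 5.50 against 8.49, 8.45 and 8.52 (-2.89). Ribosomal protein genes gave 0 of 60 called by limma in either direction, but their median was -0.31 and 42 of them were lower, and 0 higher, at an unadjusted p under 0.05.

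Secreted products were the next large class. Of 49 trophic and matrix factors 14 were higher in TZM and 4 lower (median 0.26). Igf1, insulin-like growth factor, was at 10.59, 10.58 and 10.43 in TZM and at 4.73, 4.83 and 5.07 in DC (5.66, SE 0.10, adjusted p = 3.2e-06). Hbegf, a ligand of the epidermal growth factor receptor, was at 10.44, 10.28 and 10.09 against 5.15, 5.22 and 5.24 (5.06), and Pdgfc (4.05) and Vegfa (2.72) were also higher. Mmp14, a membrane protease that with Timp2 activates Mmp2, was at 9.86, 9.58 and 9.95 against 4.86, 5.10 and 5.14 (4.76). Mmp2 itself was at 9.74, 8.39 and 9.96 against 5.09, 4.76 and 4.47 (4.59), so all 3 genes of that set were higher in every TZM array. The plasminogen activator Plau was higher by 4.57. Lower in TZM were the membrane proteases Adam8 (-3.97) and Adam19 (-3.02), their relative Adam23 (-4.39), which lacks protease activity, and the granzyme B inhibitor Serpinb9 (-3.38).

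Lipid mediators gave 8 of 33 genes higher and 2 lower, with a median of 0.19. Pla2g2d, a secreted phospholipase, was at 12.19, 12.02 and 12.17 in TZM and at 4.38, 5.07 and 4.66 in DC, the second largest gain of all genes (7.42, SE 0.18, adjusted p = 6.1e-06). The cytosolic phospholipase Pla2g4a, which frees arachidonic acid, was higher by 2.85. Prostaglandin D2 synthase Hpgds was at 10.02, 9.94 and 9.85 against 6.03, 5.35 and 5.47 (4.32), and Hpgd, which inactivates prostaglandins, at 10.53, 9.42 and 10.17 against 7.33, 6.47 and 6.78 (3.18). For platelet-activating factor, the enzyme that makes it, Lpcat2 (3.51), and the hydrolase that destroys it, Pla2g7 (5.09), were both higher. Synthesis and breakdown thus lay on the same side in both pairs. Alox5ap, which hands arachidonic acid to the leukotriene enzyme, was lower at 7.49, 7.84 and 7.84 against 11.06, 10.98 and 11.12 (-3.33), as was the prostaglandin receptor Ptger4 (-2.19), while the enzyme Alox5 was not called (0.37).

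Complement genes gave 10 of 31 higher and 0 lower by limma (median 0.33), and 17 higher and 0 lower at an unadjusted p under 0.05. Cfb, factor B of the alternative pathway, was at 11.78, 11.48 and 11.66 in TZM and at 5.69, 5.68 and 5.60 in DC (5.98, SE 0.09, adjusted p = 3e-06). The anaphylatoxin receptor C3ar1 (4.06), properdin Cfp (2.89) and C2 (2.53) were higher too. Among Fc receptors 6 of 17 were higher and 1 lower. Fcgr3 was at 9.98, 9.54 and 9.87 against 5.04, 5.38 and 4.90 (4.69), and its signalling chain Fcer1g at 11.81, 11.91 and 11.70 against 8.84, 8.88 and 8.64 (3.03). The inhibitory Fcgr2b was not called (0.14).

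Chemokines that draw myeloid cells gave 7 of 19 higher and 1 lower (median 0.67). Ccl7 was at 9.27, 9.60 and 8.37 in TZM and at 5.29, 4.15 and 5.71 in DC (4.03), the neutrophil attractant Cxcl2 at 9.84, 9.87 and 9.52 against 6.46, 6.63 and 6.45 (3.23), and Ccl2 differed by 2.54. Ccl4 was lower at 8.12, 8.60 and 8.17 against 10.10, 10.19 and 10.03 (-1.81). Among 14 chemokines for lymphocytes 4 were higher and 1 lower. Cxcl13, the B cell attractant, was at 8.36, 8.65 and 7.98 against 4.84, 4.76 and 5.11 (3.43), and Ccl19, the ligand of Ccr7, at 8.81, 9.06 and 8.53 against 6.89, 6.99 and 6.81 (1.90). Both are also on the list of stromal markers given at the outset, where Dcn was the third gene called. Ccl22 was lower (-1.20).

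Cytokine genes were split, 5 of 31 higher and 7 lower, with a median of 0.03. Il18 was at a mean of 9.89 ± 0.25 (SD, n = 3) in TZM and 7.12 ± 0.06 in DC (2.77), and its decoy Il18bp at 10.85, 10.90 and 10.79 against 6.73, 6.60 and 6.81 (4.13, SE 0.07, adjusted p = 3.2e-06). The interleukin 1 antagonist Il1rn was higher (2.13), and so was the agonist Il1a, at 10.75, 10.72 and 10.54 against 4.76, 3.74 and 3.91 (6.53), whereas Il1b was lower at 8.70, 7.86 and 8.43 against 11.47, 11.38 and 11.43 (-3.10). The 2 forms of interleukin 1 thus lay on opposite sides. So did the interleukin 12 subunits, with Il12a higher (1.73) and Il12b lower (-4.20). Lower in TZM were also Ebi3, a subunit of interleukins 27 and 35 (-2.11), Il6 (-1.56), Tnf (-1.37) and Il15 (-1.19). The Il15 call was lost in the fits that left out TZM replicate 1 or 3 or any DC array (-0.90 to -1.34), and Il6 lay under 6 in every array of both groups. Il10 was at 6.22, 6.34 and 4.98 against 4.53, 5.06 and 4.64, with overlapping arrays (1.11, adjusted p = 0.12), and it was called without TZM replicate 3 (1.54). Tgfb1 was not called (-0.13).

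Among sensors of microbial products more genes were higher than lower. Of 26 Toll-like receptors and adaptors 7 were higher and 1 lower, with a median of 0.20. Tlr4, the endotoxin receptor, was at 8.85, 8.89 and 8.47 in TZM and at 5.01, 5.21 and 4.71 in DC (3.76, SE 0.17, adjusted p = 5.2e-05). Tlr7 (3.62), Tlr1 (3.53), Tlr8 (2.38) and Tlr2 (1.66) were higher too. Tlr3, the sensor of double-stranded RNA and a known gene of type 1 DC, was the exception at 6.87, 7.48 and 6.91 against 10.42, 10.38 and 10.33 (-3.29). Tlr9 (0.50) and the shared adaptor Myd88 (-0.06) were not called. In the cytosol 14 of 32 sensing and inflammasome genes were higher and 3 lower (median 0.64), among them Ifi203 (3.30), Ifi213 (3.24), Sting1 (2.09), Naip2 (2.05) and Nod1 (1.95). Ifi205, of the same family as Ifi203, was lower at 6.89, 4.86 and 6.97 against 11.05, 10.91 and 11.06 (-4.77), so neighbouring members of that family lay on opposite sides. Nlrp1b was lower as well (-1.69).

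Interferon-stimulated genes gave 16 of 37 higher and 3 lower, with a median of 0.66. Gbp7, a guanylate-binding protein, was at 9.26, 8.14 and 8.97 in TZM and at 4.50, 4.78 and 4.66 in DC (4.14, SE 0.29, adjusted p = 0.00027). Gbp3 (3.81), Lgals3bp (3.83), Rtp4 (3.72), Ifit3 (3.00) and Cxcl10 (1.91) were higher. Gbp4 was lower at 5.23, 5.54 and 4.88 against 7.81, 7.25 and 7.59 (-2.33), and Ifitm2 differed by -1.92. Probes of such closely related genes may share signal. The factors Irf7 (0.23) and Stat2 (-0.06) and the gene Isg20 (-0.02) were level, so the list did not move as a whole.

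The interferon-stimulated response element was searched for on both strands as GAAA, 2 bases of any kind and GAAA again, a form that can overlap the composite element of Pu.1 and interferon regulatory factors. It stood in 17 of 34 promoters of the interferon list (50%), in 9 of 14 of its genes called higher (64.3%), and in 3.27% of the promoters of all genes tested. Over all genes called higher the share was 7.08%, and over all called lower 4.78%. These 4 stretches come from genes higher in TZM, with the motif or its reverse complement in capitals, read on the strand of the gene. They lie at chr3:142530253-142530322 (Gbp7, plus strand), chr3:142559975-142560043 (Gbp3, plus), chr19:34583377-34583446 (Ifit3, plus) and chr5:92349063-92349132 (Cxcl10, minus).
Gbp7: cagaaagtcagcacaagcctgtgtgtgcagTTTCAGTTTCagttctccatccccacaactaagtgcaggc
Gbp3: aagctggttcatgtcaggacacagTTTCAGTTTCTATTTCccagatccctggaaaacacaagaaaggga
Ifit3: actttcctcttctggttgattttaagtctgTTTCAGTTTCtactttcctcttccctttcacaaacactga
Cxcl10: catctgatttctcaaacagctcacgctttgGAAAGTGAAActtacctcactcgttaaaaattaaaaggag

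Among surface receptors, higher and lower genes stood side by side. C-type lectins gave 14 of 43 higher and 9 lower (median 0.23). Clec4a3 was at 9.53, 10.27 and 9.35 in TZM and at 4.29, 3.85 and 3.97 in DC (5.68, SE 0.26, adjusted p = 5.6e-05), and Clec5a (4.68), Clec4a1 (4.36), the mannose receptor Mrc1 (3.76) and Clec4e, which encodes the glycolipid receptor Mincle (3.30), were higher. The relative Clec4b2 lay on the DC side at 3.63, 4.24 and 3.96 against 7.42, 7.31 and 7.30 (-3.40). Klri1 (-4.41), Clec1a (-3.40), the Langerin gene Cd207 (-2.36) and Ly75, which encodes the uptake receptor DEC-205 (-1.23), were lower too. Inhibitory and Siglec receptors gave 12 of 30 higher and 1 lower (median 0.55), with Cd33 at 10.33, 9.90 and 10.28 against 5.16, 5.28 and 5.12 (4.99), the collagen receptor Lair1 (2.94) and Pilra (2.56).

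Integrins and adhesion molecules gave 11 of 52 higher and 9 lower, with a median of 0.04. Itga4 was at 5.67, 6.53 and 5.97 in TZM and at 10.84, 10.69 and 10.77 in DC (-4.71, SE 0.22, adjusted p = 5.6e-05). Its partner chain Itgb7 was lower as well (-1.33), and so was the other partner of that chain, Itgae, at 4.45, 4.76 and 4.44 against 8.46, 8.35 and 7.98 (-3.71). Vcam1, the ligand of Itga4, went the other way at 11.51, 11.16 and 11.48 against 7.94, 7.92 and 7.94 (3.45), so receptor and ligand were highest in different populations. Itga9, which also binds Vcam1, was at 8.55, 8.43 and 8.25 against 4.20, 4.39 and 4.18 (4.15). The laminin receptor chain Itga6 (2.85) and the semaphorin receptors Plxnd1 (4.21) and Nrp2 (4.02) were higher, and Itga8 (-3.43) and Itgal (-1.66) lower. Itgb2, the shared chain of leukocyte integrins, was not called (0.14).

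Among 45 cytokine and growth factor receptors 11 were higher and 4 lower (median 0.16). All 3 receptors of transforming growth factor beta in the list were higher: Tgfbr1 was at 10.25, 10.17 and 10.25 in TZM and at 7.75, 7.68 and 7.39 in DC (2.61), Tgfbr2 differed by 1.94 and Tgfbr3 by 1.82. Il13ra1 was higher by 2.42, and Csf3r, also a neutrophil marker, was at 7.81, 7.49 and 7.81 against 4.40, 4.61 and 4.52 (3.20), without the excess in replicate 2 that S100a8 had. Kit, the stem cell factor receptor, was lower at 5.65, 5.36 and 5.65 against 9.23, 9.05 and 9.29 (-3.63), and Flt1 differed by -1.81. The chains for granulocyte-macrophage colony-stimulating factor, Csf2ra (-0.31) and Csf2rb (-0.43), were not called. Of 28 receptors for chemokines and related signals 3 were higher and 4 lower. Cxcr2, on the neutrophil list too, was at 9.29, 9.27 and 8.77 against 3.41, 3.24 and 3.45 (5.74), the chemerin receptor Cmklr1 at 9.15, 9.38 and 9.31 against 4.18, 4.41 and 4.77 (4.83), and S1pr1, which guides exit from lymphoid tissue, differed by 3.06. Cxcr3 (-2.74) and Ccr9 (-2.15) were lower.

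**Figure D4:**
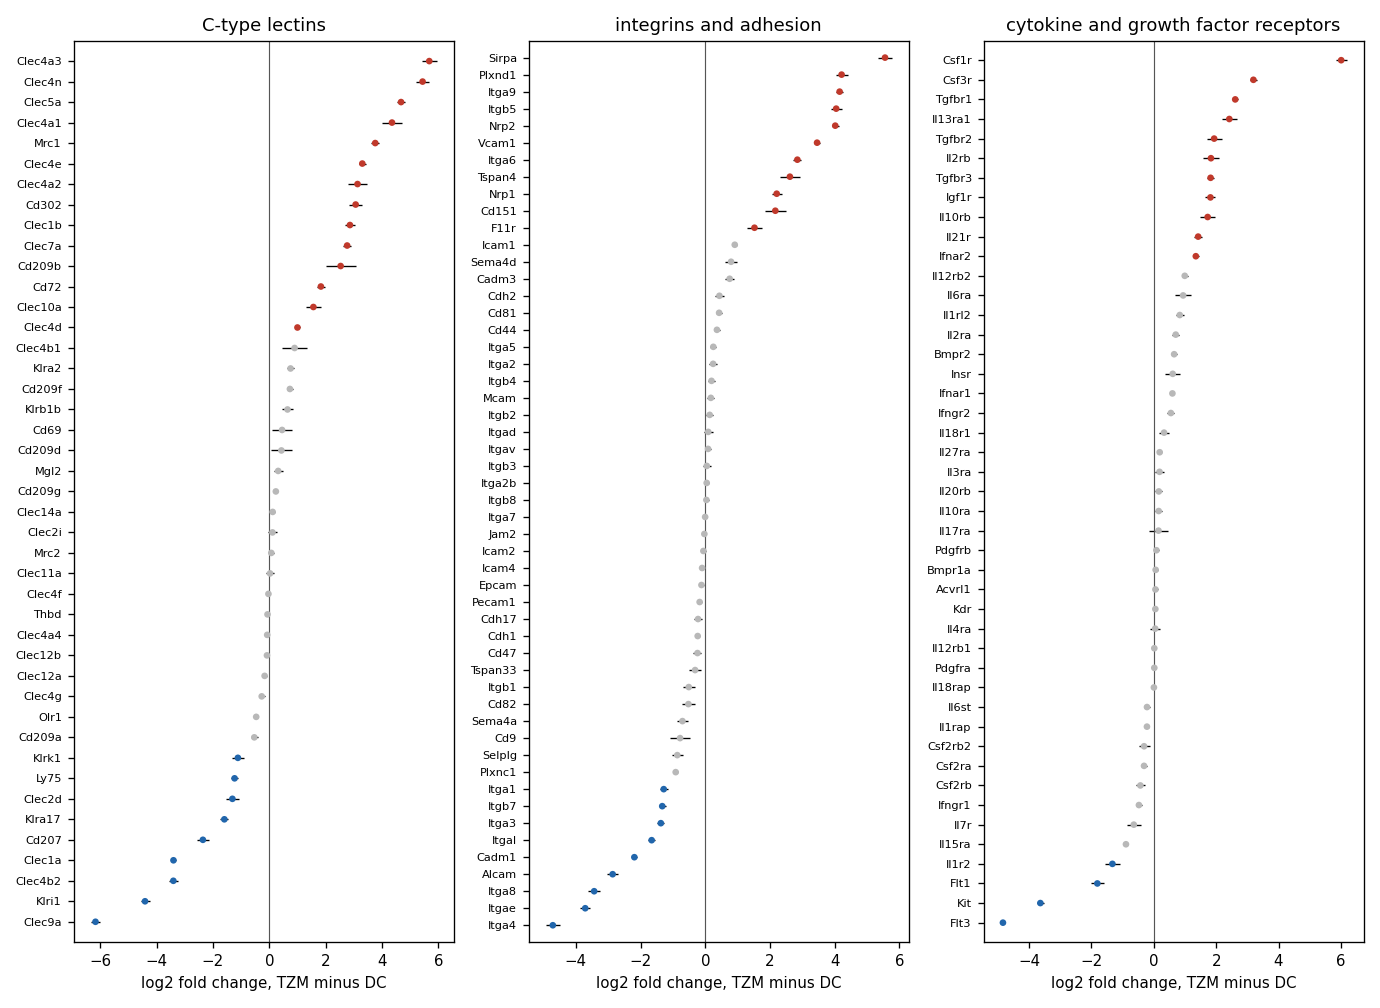
Log2 fold change, TZM minus CD8a+ DC (x axis), of each measured C-type lectin (left), integrin or adhesion gene (middle) and cytokine or growth factor receptor (right), with the SE of limma as a line and called genes in red (higher in TZM) or blue (lower). In each panel called genes lie at both ends, from Clec9a to Clec4a3, from Itga4 to Sirpa and from Flt3 to Csf1r.

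Transcription factors tied to macrophages gave 13 of 49 higher and 8 lower, with a median of 0.16. Tfec, a relative of Mitf restricted to myeloid cells, was at 9.50, 8.91 and 9.46 in TZM and at 4.13, 3.72 and 3.73 in DC (5.43, SE 0.20, adjusted p = 2.7e-05). Zeb2 was at 9.61, 9.44 and 9.46 against 5.22, 5.26 and 5.21 (4.28), and Zeb1, its paralog, had the opposite sign at 5.98, 6.33 and 5.91 against 7.69, 7.76 and 7.59 (-1.61). Cebpa (3.09), Rxra (2.53), Maf (1.41) and Klf4 (1.18) were higher. Spi1, which encodes Pu.1 and serves both lineages (-0.40), and Runx1 (-0.19) were not called. Hhex (-2.54), the aryl hydrocarbon receptor Ahr (-2.20) and Irf5 (-1.77) were lower.

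The 3 Nr4a orphan nuclear receptors, which are induced within minutes of stimulation, were all lower. Nr4a1 was at 7.27, 7.28 and 7.45 in TZM and at 11.22, 11.12 and 11.17 in DC (-3.84, SE 0.07, adjusted p = 3.2e-06), Nr4a2 differed by -4.00 and Nr4a3 by -3.41. In the list of immediate early and stress genes that holds them, 2 of 33 were higher and 8 lower (median -0.08). Fos (-0.22) and Egr1 (0.47) were high in both populations and not called, and Jun was higher at 11.05, 10.97 and 10.99 against 9.42, 9.45 and 9.37 (1.59). The part of tissue digestion and sorting in these genes was not tested.

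Among 50 genes of the type 1 DC lineage and its functions, 44 were lower in TZM and 1 was higher, with a median of -2.61. The list was drawn from genes known to mark these DC, so its direction was fixed by that choice and is no independent evidence. Gcsam, which regulates motility of germinal centre cells, was at 4.19, 4.21 and 3.81 in TZM and at 9.73, 9.37 and 9.53 in DC (-5.47, SE 0.14, adjusted p = 9.2e-06). Hepacam2 (-4.92), the clathrin adaptor Ap1s3 (-4.54), the orphan receptor Gpr33 (-4.15) and the transcription factors Bcl6 (-2.97) and Bcl11a (-2.91) were lower. Bcl6 varied little within each group, at 6.75, 6.86 and 6.76 against 9.76, 9.75 and 9.75. Pdlim4 was the gene called higher, at 7.94, 7.98 and 8.0 against 6.21, 5.23 and 5.58 (2.31). Id2 (-0.70) and Relb (-0.35), factors that DC development needs, were not called.

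Antigen presentation was lower in part. Beyond the class II genes of the sort gate, 2 of 15 genes were higher and 7 lower, with a median of -0.90. H2-Oa and H2-Ob encode the dimer that restrains peptide loading by H2-DM: H2-Oa was at 7.18, 7.34 and 7.27 in TZM and at 10.82, 10.87 and 10.84 in DC (-3.58, SE 0.06, adjusted p = 3.2e-06), and H2-Ob at 5.18, 6.03 and 6.13 against 9.66, 9.53 and 9.45 (-3.76). H2-DMa differed by less (-1.31), with its call lost without DC replicate 1 or 3 (-1.32 in both). Marchf8, a ubiquitin ligase that removes class II and Cd86 from the surface, was higher at 6.45, 6.20 and 6.40 against 4.28, 4.27 and 4.56 (1.98). Its relative Marchf1 was not called (-0.29).

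For class I presentation limma called 0 of 30 genes higher and 7 lower, with a median of -0.49, and 5 were higher and 16 lower at an unadjusted p under 0.05. The lower genes included those with known roles in cross-presentation: Wdfy4 was at 7.98, 7.52 and 8.14 in TZM and at 10.94, 10.98 and 10.94 in DC (-3.08), and Rab43 at 7.24, 7.08 and 6.81 against 9.50, 9.33 and 9.25 (-2.32). Cd1d1, which presents lipids, differed by -2.43. The general machinery differed less. Tap2 (-1.10) and the immunoproteasome subunits Psmb8 (-1.15) and Psmb9 (-1.05) were near the minimum for a call, and the Psmb9 call was lost under quantile normalization (-0.96) and that of Psmb8 without any of the 6 arrays in turn (-0.83 to -1.31). Tap1 (-0.88) and B2m (0.06) were not called.

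Co-stimulatory and checkpoint genes gave 5 of 31 higher and 8 lower, with a median of 0.00. Cd86 was at 10.43, 10.49 and 10.25 in TZM and at 10.44, 10.28 and 10.27 in DC, and Cd80 (-0.64), Cd40 (-0.21) and Cd274 (-0.26) were not called. Called genes included several of the SLAM family, whose members bind each other between leukocytes, and others outside it. Cd84 was at 9.87, 9.57 and 9.52 against 4.83, 4.35 and 5.17 (4.87, SE 0.22, adjusted p = 5.4e-05), and Slamf6 (3.40) and Ly9 (1.85) were higher. Cd244a was lower at 5.29, 4.92 and 5.21 against 8.63, 8.68 and 8.33 (-3.41), as was Slamf7 (-2.55). The ligands Icosl (-1.84) and Tnfsf9 (-1.91) were lower, and Lgals9, a ligand of the Havcr2 product, was higher (3.08).

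Cell cycle and DNA replication genes that were called were lower in TZM. Of 103 measured limma called 0 higher and 35 lower, with a median of -0.73, and 4 were higher and 75 lower at an unadjusted p under 0.05. Hells, a chromatin remodeler of dividing lymphoid cells, was at 4.34, 4.84 and 4.60 in TZM and at 7.84, 7.20 and 7.31 in DC (-2.86, SE 0.20, adjusted p = 0.00031). Top2a, which untangles replicated DNA, was at 5.99, 6.42 and 5.76 against 8.38, 8.25 and 8.20 (-2.22), and ribonucleotide reductase Rrm2 at 4.46, 4.23 and 4.32 against 6.09, 6.73 and 6.40 (-2.07). Lower genes came from several phases, as the cytokinesis motor Kif23 (-2.42), the helicase subunit Mcm6 (-1.72), the mitotic kinase Cdk1 (-1.40) and Ezh2 (-2.01) were lower. Cdk6 (0.73, called at 1.02 without DC replicate 2) and Racgap1 (0.71) were above 0 but not called. Ccnd1 was at 8.60, 7.11 and 8.90 against 9.74, 9.77 and 9.82 (-1.57, adjusted p = 0.069), and it was called in 5 of the other fits at the same minimum difference, such as the one without TZM replicate 2 (-1.03). Fewer dividing cells and less transcript in each cell cannot be told apart in bulk RNA. Of 34 histone genes 11 were lower and 1, H2bc4, was higher (2.84), though the probes of these near-identical genes may share signal.

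Genes of the late cell cycle are known for CCAAT boxes and for the cell cycle homology region, searched for here as TTTGAA, on both strands. TTTGAA stood in 33 of 96 promoters of the cell cycle list (34.4%) against 14.8% of all promoters, and CCAAT in 62 of 96 (64.6%) against 37.4%. For the genes called lower the shares were 36.7% and 73.3% of 30 promoters. Over all genes called lower they were 15.9% and 39.3%. Other lists differed widely for CCAAT, from 12.9% of 31 promoters of the TNF superfamily to 72% of 25 of cholesterol synthesis. TTTGAA stood in 0% of 13 promoters of the class II presentation list and in 30% of 40 of C-type lectins. Shares well above that of all genes were therefore not particular to cell cycle genes. The stretches are from 4 genes lower in TZM, with both motifs, or their reverse complements TTCAAA and ATTGG, in capitals. They lie at chr19:37376307-37376381 (Kif11, plus strand), chr11:99024333-99024408 (Top2a, minus), chr7:135716460-135716550 (Mki67, minus) and chr10:69352948-69353022 (Cdk1, minus). Only promoters with both motifs close together before the start were shown, so their closeness was set by that choice and is no finding.
Kif11: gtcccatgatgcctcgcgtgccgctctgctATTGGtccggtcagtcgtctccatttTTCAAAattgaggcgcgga
Top2a: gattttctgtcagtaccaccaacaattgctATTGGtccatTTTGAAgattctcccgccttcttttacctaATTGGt
Mki67: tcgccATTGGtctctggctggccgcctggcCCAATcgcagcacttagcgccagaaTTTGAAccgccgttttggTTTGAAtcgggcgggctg
Cdk1: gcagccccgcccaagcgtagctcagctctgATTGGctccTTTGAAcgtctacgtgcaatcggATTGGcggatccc

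**Figure D5:**
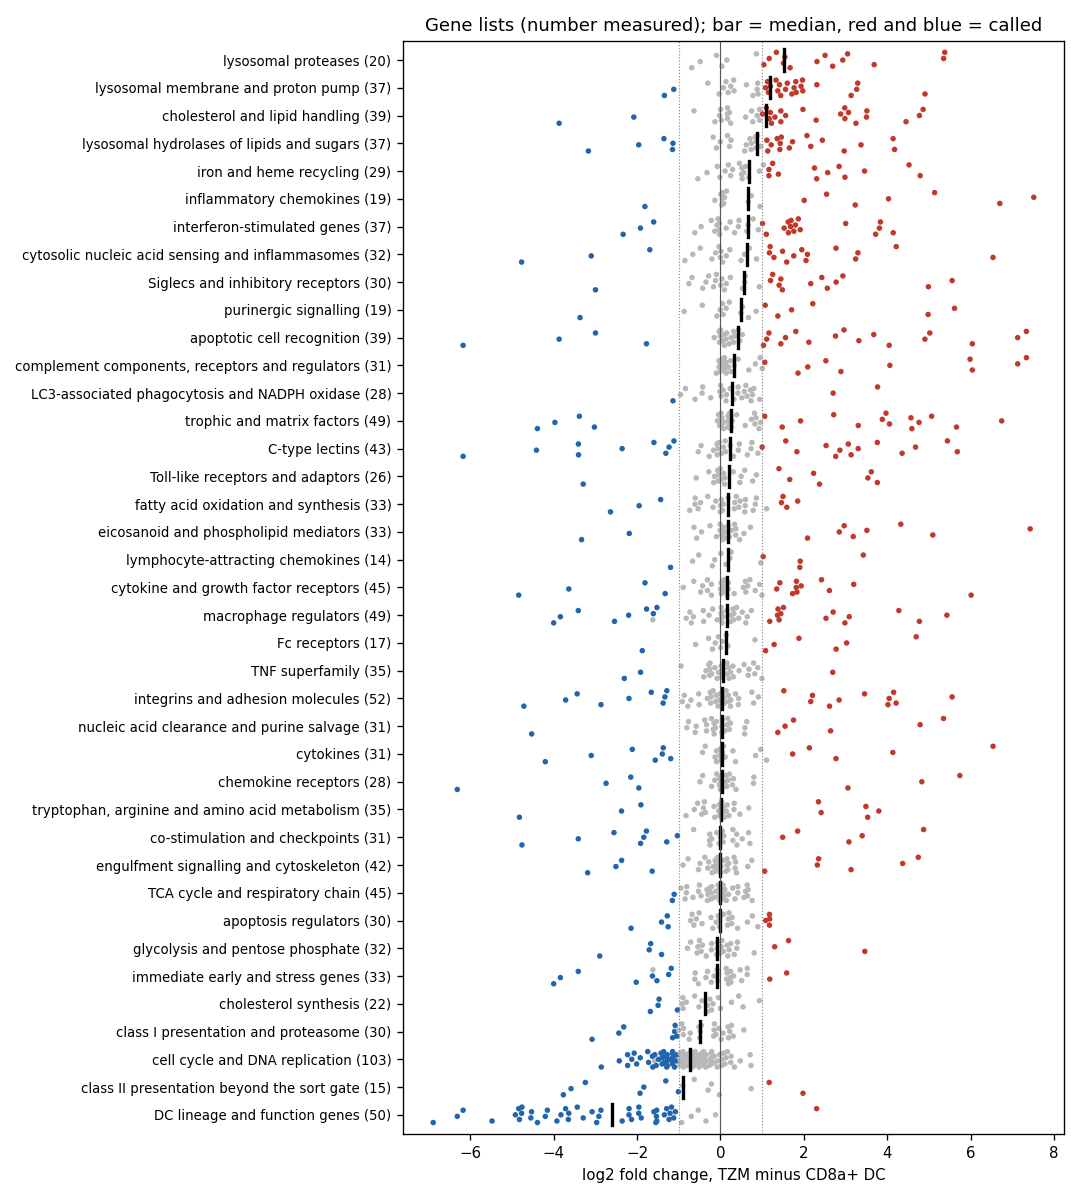
Log2 fold change, TZM minus CD8a+ DC (x axis), of every measured member of each gene list (rows, with the number measured), with called genes in red or blue and the list median as a black bar. Lysosomal and lipid handling lists have medians from 0.87 to 1.53, the cell cycle list lies at -0.73 with no red point, and the DC lineage list lies at -2.61.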

How the data were processed

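The authors deposited log2 expression values per probe set. The submitters' processing notes name Affymetrix Expression Console 1.3.1 and RMA, a method that subtracts background, brings arrays to a common distribution and combines the probes of a set. Of 35556 probe sets in the deposited table, the platform annotation gave 21789 a single gene symbol, 1621 several and 12146 none, and 21698 were matched to RefSeq gene names (GRCm38.p6). For the 999 genes with several probe sets the brightest was kept, which left 19938 genes. Array medians ran from 4.90 to 5.02, and the number of arrays limits the precision.

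R 4.3.3 and limma 3.58.1 were used to fit the 6 arrays with population as the only term (lmFit, eBayes), and SE and adjusted p-values are from that fit. Tested on simulated data for this comparison, with 200 of 19938 genes changed, 95% of genes shifted by 1.5 and 99% of those shifted by 2 (log2) were called, with 0 false calls. The simulated noise was independent and normal, and unchanged genes had no true difference. No effect of array, sex or other cells was included. The simulation therefore checks the fit and does not measure false calls in the real data. Gene lists and families named by symbol were described by counts and medians, with no list test. Members and lists were chosen with earlier results of these data known. Named genes were drawn from up to 6 called members per list and direction, members whose role was needed or that completed a count, the 25 largest changes in each direction, and up to 25 genes in each direction high in one population and near the floor in the other. Antigen receptor segments, small RNAs and predicted genes were not named. Motifs were searched on both strands of RefSeq promoters, as a description. Alternatives changed the minimum difference, level filter, normalization, treatment of probe sets, variance model and arrays used.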

Additional observations from a re-analysis of the deposited data

How the results depend on the processing

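Against 923 genes higher and 786 lower in TZM, the count without a minimum difference was 1747 higher and 1863 lower, and with a minimum of 2 it was 383 and 240. Leaving out each array in turn gave 830 to 981 higher and 642 to 803 lower. With every probe set, which tests 35556 probe sets in place of genes, it was 1066 and 1180, the latter over 1.5 times the main count. The other alternatives stayed within 1.5 times of both counts: all 9 arrays in the fit (937 and 803), a level of at least 6 in at least 3 arrays (813 and 690), median centring (882 and 852), quantile normalization (900 and 826), averaged probe sets (916 and 778), trended and robust eBayes (936 and 803) and array weights (955 and 776). With every probe set, as without a minimum difference, more were lower than higher. Leaving out the genes of chromosomes X and Y, an alternative chosen after seeing the data, gave 892 and 763. Deviations of same-numbered arrays over 7262 genes correlated at -0.077, -0.081 and 0.129. The highest correlation was that of TZM replicate 2 with DC replicate 1 (0.191). The replicate numbers thus gave no clear sign of pairing, but so few arrays cannot exclude it. A fit with the replicate block gave 899 and 755. Of the genes named with a call, 309 were followed across the alternatives. The call was kept by 288 under each alternative with the same minimum difference, and 21 lost it under at least 1. These included Xist, S100a8, Cd79b, Clec10a and Dcn, each when a single array was left out, and P2rx3 with the mean of its probe sets (0.96). Of the genes named without a call, 5 were called under at least 1. No named gene changed sign in a fit where it was called there or in the main fit. Sign changes of genes called in neither were not counted. Signal over background is unknown here, which limits what can be said of weakly expressed genes.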

Other observations

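Some transcripts usually seen in lymphocytes were higher in the TZM arrays. Cd4 was at 11.06, 10.59 and 10.83 in TZM and at 6.84, 6.76 and 6.68 in DC (4.07, SE 0.13, limma adjusted p = 1.7e-05), and Cd28, the co-stimulatory receptor of T cells, at 9.19, 9.50 and 8.54 against 4.20, 4.22 and 4.28 (4.84). Cd3e was at 6.08, 5.97 and 6.38 against 5.45, 5.77 and 5.59 and Cd3g at 3.94, 4.37 and 5.02 against 3.53, 3.61 and 3.57, and 3 of 16 genes of the T cell list were called. Cd79b, a chain of the B cell receptor, was at 9.69, 8.27 and 9.86 against 6.43, 7.01 and 6.44 (2.65), while Ms4a1, which encodes CD20, was lower (-2.29). Gzma, a granule protease of cytotoxic cells, was at 4.86, 6.15 and 6.02 against 3.25, 2.96 and 3.20 (2.53). The part of other cells in these values was not tested.

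Purinergic signalling, a list of receptors and of enzymes and channels that release or cleave nucleotides, gave 6 of 19 genes higher and 1 lower, with a median of 0.49. The receptors P2ry13 (5.61) and P2ry12 (4.98), the ectonucleotidase Entpd1 (1.38) and the channels P2rx4 (2.21), P2rx3 (1.71) and P2rx7 (1.07) were higher and the lysophospholipid receptor P2ry10 was lower (-3.36). Among 35 TNF superfamily genes 1 was higher, the ligand Tnfsf15 (2.69), and 2 were lower, Tnfrsf4 (-2.30) and Tnfsf9. Fatty acid oxidation and synthesis gave 4 of 33 higher and 3 lower, with the oxidation enzymes Echs1 (1.85), Hadh (1.59) and Acaa2 (1.5) and the desaturase Fads1 (1.46) on the TZM side and the mitochondrial carnitine carrier Slc25a20 (-2.64), Agpat3 (-1.95) and the peroxisomal oxidation enzyme Acox3 (-1.43) on the DC side. Regulators of apoptosis gave 4 of 30 higher and 4 lower. The survival genes Bcl2l1 (1.18) and Bcl2 (1.09, not called without TZM replicate 1) were higher, as were the necroptosis genes Ripk3 (1.18) and Mlkl (1.18). Casp6 (-2.14), Bak1 (-1.41), Birc5 (-1.27) and Apaf1 (-1.25) were lower.

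Families named by symbol were counted too, and their members below were picked after their values were seen. The counts can be read against 4.63% called higher and 3.94% called lower over all genes. The Ms4a membrane proteins gave 5 of 19 higher, among them Ms4a6c at 10.39, 10.38 and 10.31 in TZM against 6.63, 5.87 and 6.55 in DC (4.01), and 1 lower. Solute carriers gave 36 of 364 higher and 14 lower, and ABC transporters 8 of 48 higher and 0 lower by limma, with 10 higher and 5 lower at an unadjusted p under 0.05. The peroxisomal transporter Abcd2 (3.67) and the organic anion pump Abcc3 (4.12) were among them. Orphan and adhesion receptors gave 9 of 105 higher and 14 lower, and 20 higher and 19 lower at an unadjusted p under 0.05. Serpins gave 1 of 48 higher, Serpinb6a at 9.52, 9.21 and 9.14 against 5.37, 5.53 and 5.33 (3.88), and 6 lower, among them its near relative Serpinb6b (-3.28) and Serpinb2 (-3.36). Sialyltransferases gave 3 of 20 higher and 3 lower: St6galnac3 (3.80) and St6galnac2 (2.62) were higher, and St8sia4, which makes polysialic acid (-3.77), and the ganglioside synthase St3gal5 (-3.17) were lower. Potassium channels gave 5 of 92 higher (5.43%) and 2 lower (2.17%), close to or under the shares over all genes. Kcnj10 was at 9.14, 9.76 and 9.01 against 4.17, 4.43 and 4.80 (4.84).

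2 other motifs were searched. TGANTCA, the AP-1 element, stood in 7.99% of promoters of genes called higher, 7.24% of those called lower and 6.9% of all, with more in some lists, such as 34.8% of 23 promoters of the co-stimulatory list and 26.5% of 34 of the interferon list. The composite element of Pu.1 and interferon regulatory factors, searched for as GGAA, 2 bases of any kind and GAAA, stood in 2.93%, 3.1% and 2.5%, and in 22.5% of 40 promoters of C-type lectins.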
